A study of Homo sapiens with 2 samples.

Results

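Lung fibroblasts keep their identity in part through a small set of transcription factors. TBX4 and TBX5 are T-box factors that pattern the lung and limb mesenchyme, and FOXF1 is a forkhead factor that the developing lung mesenchyme needs. TWIST1 and TWIST2 are basic helix-loop-helix factors of mesenchymal cells, PRRX1 is a paired-related homeobox factor of mesenchyme and of fibroblasts, and RUNX1 and RUNX2 are DNA-binding subunits of core-binding factor, known best from blood and bone. Genes of this kind are usually controlled by enhancers that lie far from their promoters, and chromatin loops bring these elements together.

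The 8 loci were chosen by gene name, each as a window in hg19, and an interaction was counted at a locus when at least 1 of its anchors overlapped the window. The windows were chr17:59520001-59570000 for TBX4, chr12:114790001-114850000 for TBX5, chr7:19140001-19170000 for TWIST1, chr2:239750001-239840000 for TWIST2, chr1:170620001-170720000 for PRRX1, chr16:86530001-86560000 for FOXF1, chr21:36160001-36430000 for RUNX1 and chr6:45290001-45520000 for RUNX2. All of them lie on different chromosomes. The 8 loci held 30 of the 12221 control interactions and 362 of the 150390 senescent interactions.

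The data were METTL3 HiChIP, which ligates DNA ends that are near each other in the nucleus and enriches by immunoprecipitation the fragments bound by METTL3, the catalytic subunit of the main mRNA adenosine methyltransferase. The cells were IMR90, a line of human embryonic lung fibroblasts labelled wild type and kept under 2% oxygen. The study made 1 control library and 1 from cells driven into senescence by switching on ER:RAS, an oncogenic H-RAS G12V fused to the estrogen receptor. Whether the control cells carried ER:RAS, how long it was on and how many cultures each library holds are not stated in the labels. The tables list paired-end tags (PETs), each a read pair joining 2 anchors, and hold 14373 PETs for the control library and 184165 for the senescent library, 12.8 times as many. With 1 library per group no difference has a replicate check, and every interval is a 95% interval for counting error alone. Intervals of ratios take the totals that they are scaled to as fixed. In bulk cells, a contact made in more cells and a contact made more often per cell cannot be told apart. Whether the anchors lie on promoters, exons or introns was not analysed here, since no annotation in hg19 was used. Gene order comes from RefSeq and covers protein-coding genes only, so noncoding genes in between are not named. HiChIP contacts are not expression, so the cell type was not checked against marker expression.

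With the widest windows, 270 and 230 kb, the RUNX genes carried the most contacts of any family here. Per 100 kb of window, RUNX2 had 21.7 senescent PETs, more only than PRRX1 with 17. RUNX1 was the only locus with more than 4 control PETs. On the raw counts, the RefSeq promoters found for both genes are shown, 1 for RUNX1 and 2 for RUNX2. Promoters of these genes outside the set used were not looked at. Each sequence runs from 250 bases before to 50 bases after the start, in the build GRCh38.p14 and 5′ to 3′ on the strand of the gene. They are chr21:34888650-34888949 on the minus strand for RUNX1, and chr6:45328080-45328379 and chr6:45422025-45422324 on the plus strand for the first and the second RUNX2 promoter. Capitals mark ACCACA, a form of the core that RUNX proteins bind, searched on both strands. Other forms of the core were not searched.
RUNX1 promoter: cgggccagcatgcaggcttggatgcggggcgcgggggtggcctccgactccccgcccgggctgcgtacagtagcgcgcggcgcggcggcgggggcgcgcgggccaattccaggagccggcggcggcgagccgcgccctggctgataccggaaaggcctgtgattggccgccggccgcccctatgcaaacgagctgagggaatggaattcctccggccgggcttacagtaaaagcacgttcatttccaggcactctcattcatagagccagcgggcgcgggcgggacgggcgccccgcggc
RUNX2 first promoter: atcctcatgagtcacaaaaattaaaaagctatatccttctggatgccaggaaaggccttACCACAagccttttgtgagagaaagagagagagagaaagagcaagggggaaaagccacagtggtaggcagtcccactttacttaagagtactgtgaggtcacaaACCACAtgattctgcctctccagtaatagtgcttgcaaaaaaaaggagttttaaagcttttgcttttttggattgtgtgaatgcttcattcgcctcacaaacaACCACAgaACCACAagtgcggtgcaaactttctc
RUNX2 second promoter: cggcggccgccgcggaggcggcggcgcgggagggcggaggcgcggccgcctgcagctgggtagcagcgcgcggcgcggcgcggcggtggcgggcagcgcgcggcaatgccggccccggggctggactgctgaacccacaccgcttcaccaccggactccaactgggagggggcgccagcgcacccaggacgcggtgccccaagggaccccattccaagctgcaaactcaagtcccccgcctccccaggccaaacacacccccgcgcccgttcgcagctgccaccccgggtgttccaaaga
At least 1 copy of ACCACA was found in 13.1% of 35116 RefSeq promoters of the same length. The first RUNX2 promoter held 4 copies, and the other 2 sequences held none. The first RUNX2 promoter was also poor in CpG, with 2 CpG and 42.7% GC. RUNX1 had 40 CpG and 72.0% GC, and the second RUNX2 promoter had 39 CpG and 76.0% GC. The median over all promoters was 14 CpG and 58.7% GC. Promoters were found for 6 of the 8 genes, 8 promoters in all. ACCACA was in 2 of the 8, the first RUNX2 promoter and a TBX5 promoter with 1 copy. Of the 8, 1 held GATC, the letters that MboI cuts in this assay, against 41.7% of all promoters. These matches are descriptions of sequence and were not placed on the anchors.

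The senescent library listed contacts at all 8 loci, and the control library at 4 of them. The RUNX1 locus had 23 control PETs and 183 senescent PETs. FOXF1 had no listed control PET and 115 senescent PETs, and RUNX2 had 2 and 50. TBX5 had 36 senescent PETs, TBX4 had 29 and TWIST2 had 24, all with none listed in the control library. PRRX1 had 4 control and 17 senescent PETs, and TWIST1 had 3 and 11. RUNX1 thus held most of the 32 control PETs, while RUNX1 and FOXF1 together held more than the other 6 loci in the senescent library, which had 465 PETs at the 8 loci.

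**Figure D1:**
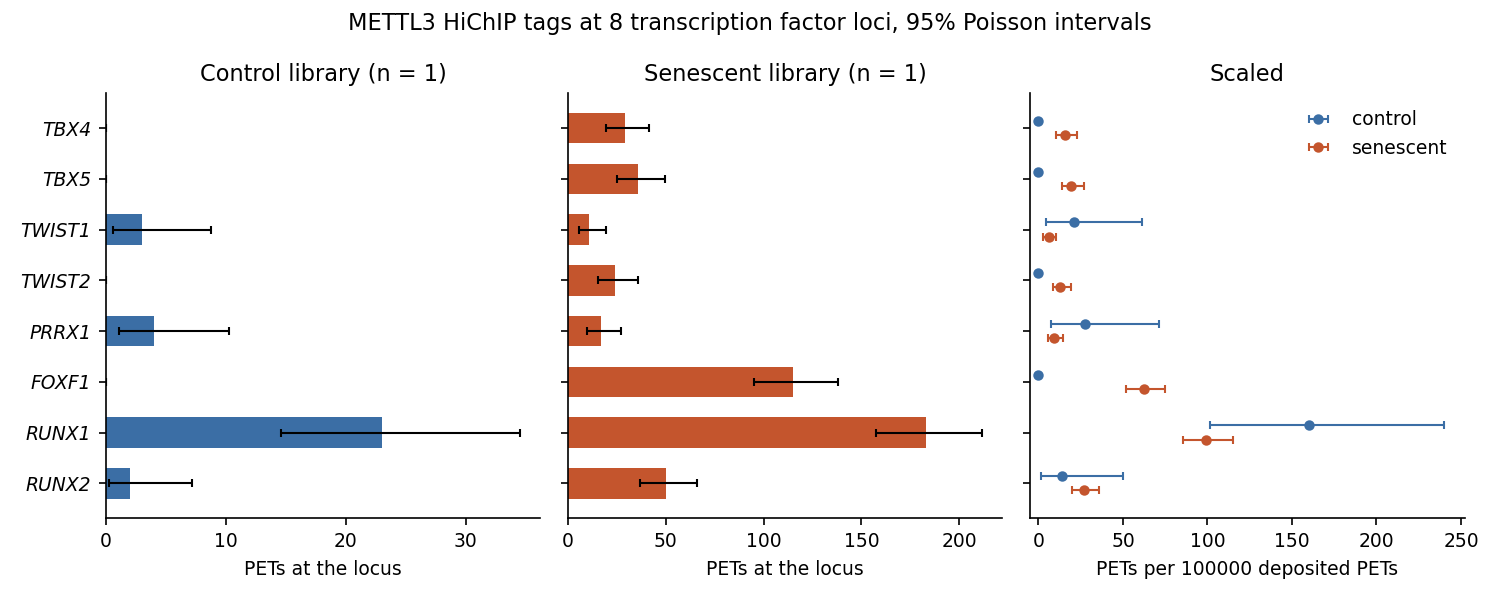
PETs at each of the 8 loci in the control library (left) and the senescent library (middle), on separate axes that start at 0, and the same values per 100000 deposited PETs (right), with 95% Poisson intervals where PETs were listed. RUNX1 has the most PETs in both libraries, with 23 and 183, and FOXF1 has 115 in the senescent library and none listed in the control library.

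Relative to the size of each table, the loci together differed little. They held 223 control PETs per 100000 deposited PETs and 252 senescent PETs per 100000, a ratio of senescent over control of 1.13 (0.792 to 1.68, exact conditional binomial interval). With windows widened by 50 kb it was 1.62 (1.15 to 2.36). With at least 2 PETs required it was 3.59 (1.21 to 17.6), from 3 control PETs. The ratio of 1.13 also rested on RUNX1: without it the other 7 loci had 9 control and 282 senescent PETs, a ratio of 2.45 (1.27 to 5.40). That value in turn rested on FOXF1, and without both genes the ratio was 1.45 (0.745 to 3.22), from 9 control and 167 senescent PETs. Without FOXF1 alone the ratio was 0.854 (0.594 to 1.27). No control PET was listed for 4 of the 8 loci, and the same was true of 56.0% of the 9113 autosomal 100-kb tiles with at least 10 PETs over both libraries. A share at least 2-fold higher in the control library was found at 2 loci, TWIST1 and PRRX1, against 19.9% of the tiles. A share at least 2-fold higher in the senescent library, with control PETs listed, was found at no locus, against 6.56% of the tiles. All 8 loci had at least 10 PETs, and the 3 shares were near those of the tiles. The likeness is rough, since the windows were 30 to 270 kb wide. Of tiles with PETs in either library, 77.2% held no control PET at 30 kb and 51.4% at 270 kb.

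Set against tiles of their own width, the loci ranked unequally. Only 8 of 41908 autosomal 30-kb tiles with contacts (a share of 0.0191%) had at least as many senescent PETs as FOXF1. Within 2 Mb of FOXF1, however, 1 of 132 other 30-kb tiles also held 115 senescent PETs. The median of these 132 tiles was 18, against 5 over all tiles with contacts. For RUNX1 the share was 1.39% of the 270-kb tiles for senescent contacts and 1.73% for control contacts, so that this locus stood near the top in both. Among senescent tiles the share was 8.67% for TBX5, 10.6% for TBX4, 20.4% for RUNX2, 22.9% for TWIST2, 28.2% for TWIST1 and 34.0% for PRRX1. Among control tiles it was 8.25% for TWIST1, 11.05% for PRRX1 and 32.2% for RUNX2. These control shares are over tiles with at least 1 PET in either library, of which many held no control PET. So 3 or 4 PETs already rank high, and the ranks of the 2 libraries are not comparable. Locally, tiles within 2 Mb with at least as many senescent PETs numbered 9 of 80 at TBX4 and 7 of 66 at TBX5. They numbered 3 of 132 at TWIST1, 18 of 44 at TWIST2, 3 of 40 at PRRX1 and 5 of 16 at RUNX2.

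**Figure D2:**
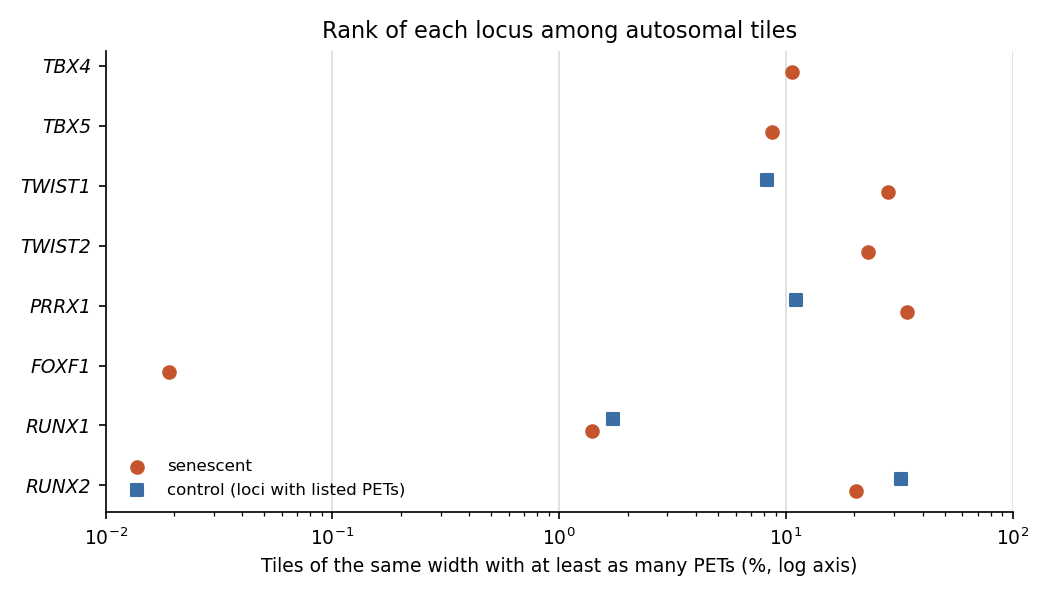
Share of the autosomal tiles with contacts, each tile as wide as the locus, that held at least as many PETs as the locus (log axis). Circles are the senescent library and squares the control library, where PETs were listed; FOXF1 lies at 0.0191% in the senescent library and RUNX1 at 1.39% and 1.73% in the senescent and control libraries.

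FOXF1 was the densest of the 8 loci in the senescent library, with 115 PETs (94.9 to 138) in 67 interactions at 3 anchors. FOXF1 drives the growth of mesenchyme and vessels in the lung, and loss of the gene or of distant upstream DNA causes a lethal disorder of the lung capillaries in newborns. The anchors were chr16:86522934-86534423 with 39 PETs, chr16:86536116-86547787 with 58 and chr16:86548320-86555099 with 42. Each of the 3 was joined to both of the others, and the last 2 shared 12 PETs at a span of 9.76 kb, the most of any contact at the 8 loci. The middle anchor had 31 partners, a number that 0.0302% of all senescent anchors reached. At least 2 PETs were seen in 26.9% of the FOXF1 interactions, against 14.4% of all senescent interactions. The anchor chr16:86522934-86534423 had its midpoint outside the window. When anchor midpoints had to lie in the window, FOXF1 kept 88 PETs in 50 interactions. With the window widened by 50 kb on each side it had 245 PETs.

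The FOXF1 contacts leaned to the side of IRF8, the first protein-coding gene in that direction. Of 64 contacts that left the window, 48 (75.0%) went to that side and 16 to the side of MTHFSD, FOXC2 and FOXL1. The senescent library listed 172 and 157 anchors within 2 Mb on these sides, and 18.6% and 9.55% of them were joined to FOXF1. The control library listed 13 and 7 anchors there, none of them joined to FOXF1. All 3 FOXF1 anchors were joined to each of 5 outside sites, all on the IRF8 side. The nearest was chr16:86507423-86517300, 12.7 kb from the window, with 11 PETs. The others were chr16:86414732-86427560 with 4 PETs, and chr16:86382880-86390873, chr16:86327243-86342320 and chr16:86252569-86259043 with 6 PETs each, the last 271 kb away. The longest FOXF1 contact spanned 1981 kb to chr16:88531309-88533597, with 1 PET.

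**Figure D3:**
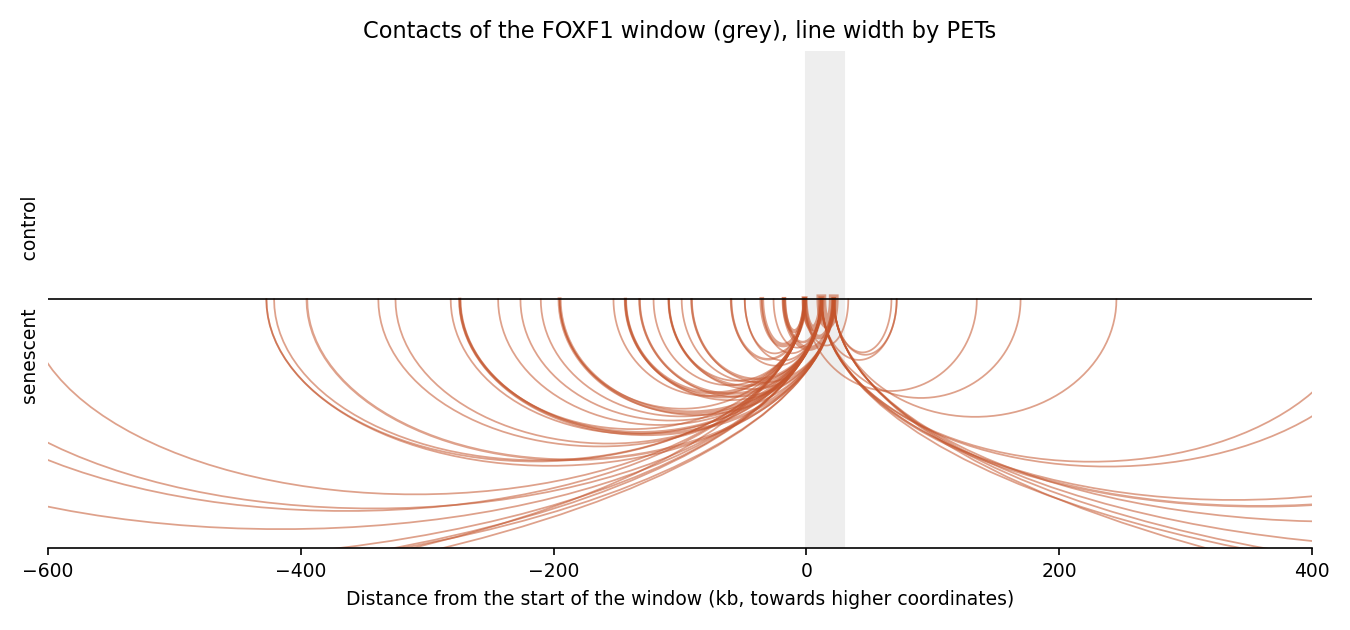
Contacts of the FOXF1 window (grey) by distance from its start, with control arcs above and senescent arcs below the line, thicker for more PETs and cut off at the plot's edges. No control contact was listed; of the senescent contacts that left the window, 48 ran towards lower coordinates and 16 towards higher ones.

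The absence of control PETs at FOXF1 has to be read with its chromosome. At the senescent share of all deposited PETs, FOXF1 would have had 8.98 control PETs. Chromosome 16 held only 119 control PETs against 8606 senescent ones, and at its share FOXF1 would have had 1.59 control PETs. At the share of the PETs within 2 Mb of the window it would have had 1.45. For TBX4, TBX5 and TWIST2 the numbers from all deposited PETs were 2.26, 2.81 and 1.87. From the PETs of the same chromosome they were 0.794, 3.14 and 2.96, and from the PETs within 2 Mb 6.02, 1.87 and 2.88. The highest number was thus at FOXF1 from all PETs, at TBX5 from those of the chromosome and at TBX4 from those within 2 Mb. The tables hold only pairs with at least 1 PET, so no interval or fold is given for a locus with none listed. FOXF1 also rested on wide anchors: 2 of its 3 exceeded 10 kb, and 22 of its PETs were left when interactions with such anchors were set aside.

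The T-box loci differed in how their senescent contacts were spread. TBX5, which is also a main regulator of the heart and forelimb, had 36 PETs (25.2 to 49.8) in 27 interactions, and 23 of these interactions met at the single anchor chr12:114832031-114856069. That anchor was 24.04 kb wide, and 0.196% of senescent anchors had as many partners. Without anchors over 10 kb, 3 PETs were left at TBX5. The strongest TBX5 contact joined this anchor to chr12:114829052-114831125 with 6 PETs. On the side of TBX3, its T-box neighbour, 2 TBX5 anchors were joined to chr12:115120984-115131777, 271 kb beyond the window. The longest contact reached chr12:112855525-112858383, at a span of 1969 kb.

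TBX4, which acts in the lung and hindlimb, had 29 PETs (19.4 to 41.6) in 26 interactions over 7 anchors. The first, chr17:59527800-59536729, had 11 partners, and the others had 3 to 5. The median span was 41.9 kb (24.4 to 197), against 239 kb (63.3 to 473) at TBX5, and the intervals overlapped. Of 19 possible pairs of TBX4 anchors 8 were joined, and 7.42 would be at the rate of all senescent anchor pairs at like distance. On the side of TBX2, the next T-box gene, the wide site chr17:59465908-59495325 was joined to 2 TBX4 anchors, and chr17:59502563-59505361 was joined to 3. The TBX4 contact ranked first joined chr17:59538535-59540793 to chr17:59562656-59565525 with 2 PETs, and 2 other contacts also had 2 PETs. The longest spanned 1706 kb, to chr17:57837435-57842406.

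The TWIST genes encode close relatives that hold back differentiation of mesenchymal cells. Per 100 kb of window, TWIST1 had 36.7 and TWIST2 26.7 senescent PETs, more than RUNX2 and PRRX1 and fewer than the other loci. At TWIST1 the control library listed 3 PETs, all from chr7:19152957-19155181 to sites on the side of HDAC9, 406 to 589 kb away. The senescent library listed 11 PETs (5.49 to 19.7) over 3 anchors, all joined to each other. The strongest contact joined chr7:19143490-19149275 to chr7:19155320-19161340 with 3 PETs, and the first of these anchors had the most partners, 5. The farthest control site, chr7:18544657-18550933, was also joined in the senescent library, as chr7:18544843-18550933, but to the next TWIST1 anchor, chr7:19155320-19161340. These were the longest contacts in both libraries, with spans of 606 and 610.4 kb.

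TWIST1 had a higher share of the control table: its scaled ratio of senescent over control was 0.286 (0.0756 to 1.60). The direction turned when the PETs within 2 Mb of the window were the scale, with a ratio of 2.22 (0.586 to 12.4). TWIST2 had 24 senescent PETs (15.4 to 35.7) in 23 interactions. Its anchor chr2:239771572-239781138 had 13 partners. A site of 38.01 kb, chr2:239799820-239837829, the widest anchor at any of the 8 loci, had only 4 partners. The median span at TWIST2 was 280.3 kb (62.3 to 697), an interval that holds the library median of 97.1 kb. The strongest, to chr2:239726241-239731274, had 2 PETs, and the longest ran 1786 kb to chr2:241541150-241544751.

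PRRX1 marks fibroblasts of many organs. Its 4 control PETs, 1 to an interaction, included 3 inside the window that all met at chr1:170661376-170663351. The fourth, the longest, joined chr1:170675684-170678774 to chr1:170590905-170593770. The senescent library had 17 PETs (9.90 to 27.2) in 16 interactions over 5 anchors. The anchors chr1:170698026-170705957 and chr1:170628365-170641717 had 7 partners each. Of the 5 control anchors, 2 overlapped a senescent anchor, and none of the 4 control contacts was listed again. The site chr1:170590905-170593770 was nonetheless joined to PRRX1 in both libraries, through different anchors. The strongest senescent contact, chr1:170667026-170670938 to chr1:170698026-170705957, had 2 PETs, and the longest spanned 1074 kb. The scaled ratio was 0.332 (0.108 to 1.35) and turned to 1.10 (0.358 to 4.48) with the PETs within 2 Mb as the scale.

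RUNX1 had the most contacts of the 8 loci in both libraries and its 270-kb window was the widest. The control library listed 23 PETs (14.6 to 34.5) in 21 interactions over 11 anchors, and the senescent library 183 (157 to 212) in 150 interactions over 25 anchors. Within 2 Mb on either side, none of 14 other 270-kb tiles held as many PETs as RUNX1 in either library. Of all PETs on chromosome 21, RUNX1 held 15.8% for the control and 7.06% for the senescent library. The scaled ratio was 0.621 (0.401 to 1.004) over all deposited PETs. With at least 2 PETs required it turned to 1.20, from 3 control PETs. It was 0.448 (0.290 to 0.725) over those of chromosome 21 and 0.425 (0.275 to 0.688) over those within 2 Mb. These intervals leave out the counting error of the scale, 146 control PETs on chromosome 21 and 28 within 2 Mb.

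Inside the RUNX1 window the anchors were joined at like rates in both libraries. In the control library 11 of 55 possible pairs were joined (20%, 10.4 to 33.0%), and 11.5 would be at the rate of all control anchor pairs at like distance. In the senescent library 60 of 300 possible pairs were joined (20%, 15.6 to 25.0%), against 45.9 at that library's own rate. The senescent anchor with the most partners was chr21:36232436-36244378, with 22, and the control anchor was chr21:36178926-36187056, with 5. The strongest control contact joined chr21:36173781-36175794 to chr21:36178926-36187056 with 3 PETs, and the senescent library listed it with 1 PET. The strongest senescent contact joined chr21:36357789-36366867 to chr21:36367801-36371075 with 6 PETs. The contact from chr21:36167418-36169757 to chr21:36178926-36187056 had 1 control PET and 3 senescent PETs. These were the only 2 of the 30 control contacts at the 8 loci that were listed in both libraries by overlap of both anchors (6.67%, 0.818 to 22.1%), against 16.6% of all control contacts. The share rose to 53.3% (34.3 to 71.7%) when anchors within 5 kb of each other were treated as the same. The share of all control contacts under that looser rule was not computed, so 53.3% cannot be set against 16.6%.

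Contacts that left the RUNX1 window ran mostly upstream of the gene, which lies on the minus strand, towards SETD4 and CBR1. In the control library all 10 such contacts went that way. In the senescent library 69 of 90 did (76.7%), and 36.7% of the 109 senescent anchors within 2 Mb upstream were joined to RUNX1, against 17.0% of the 100 on the other side. The site chr21:36625228-36631527, 195 kb upstream of the window, was joined to 5 RUNX1 anchors with 8 senescent PETs. The site chr21:36574588-36579428 was joined to 4. Both sites overlapped control anchors that were joined to RUNX1 as well, chr21:36627757-36631527 by 1 anchor and chr21:36574588-36577204 by 2. The longest contact reached chr21:37303434-37307380 in the control library, at 1096 kb. In the senescent library it joined chr21:36285709-36290203 to chr21:38155229-38157878 at a span of 1869 kb, with 1 PET.

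**Figure D4:**
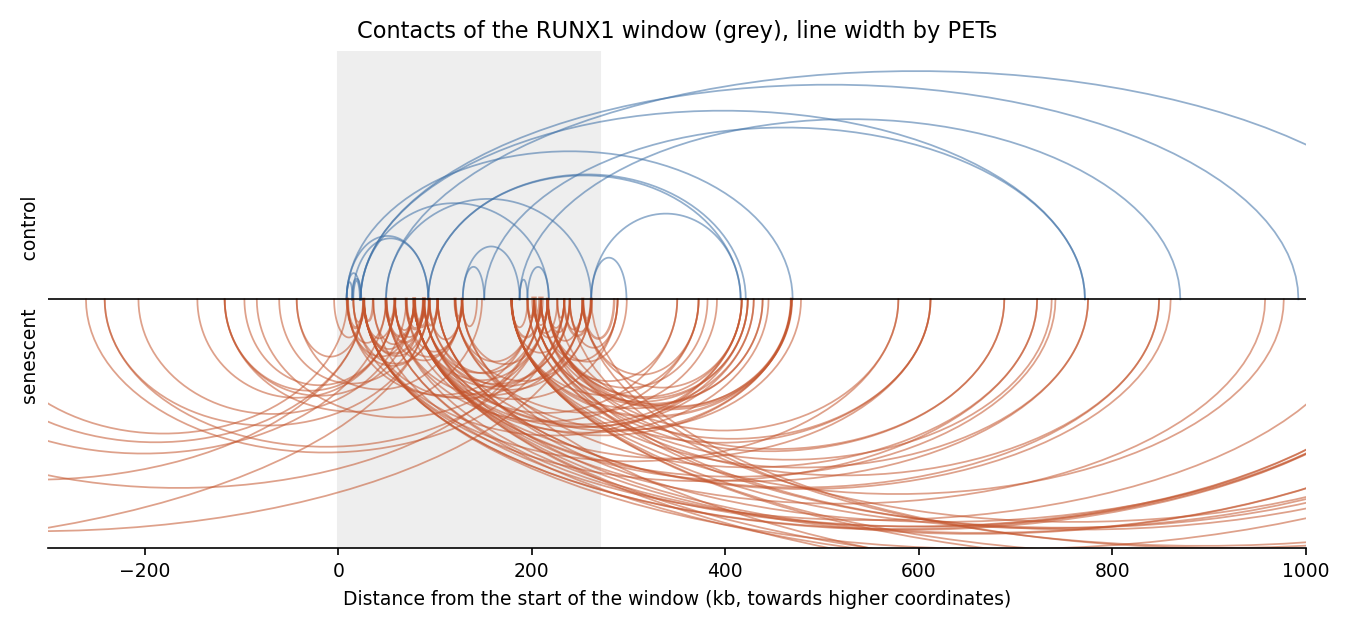
Contacts of the RUNX1 window (grey) by distance from its start, with control arcs above and senescent arcs below the line, thicker for more PETs and cut off at the plot's edges. All 10 control contacts that left the window ran towards higher coordinates, as did 69 of 90 senescent ones.

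The distal sites were also compared without asking for the same anchor inside the window. Of the 8 outside sites joined to RUNX1 in the control library, all overlapped a senescent anchor and 6 were joined to RUNX1 there. At RUNX2 the numbers were 2 of 2, at PRRX1 1 of 1 and at TWIST1 1 of 3, so that 10 of 14 control sites were joined to the same locus in the senescent library. Over all autosomal tiles of these widths, 22.1% to 31.7% of the control sites were joined again to the same tile. The counts were also set beside their surroundings, all senescent anchors on that side out to the farthest control site. These include the anchors at the control sites themselves, so a likeness between the 2 is partly built in. Of the 45 senescent anchors that lay upstream of RUNX1 within the reach of its control sites, 28 (62.2%) were joined to RUNX1. The same counts within reach were 6 of 8 at RUNX2, 2 of 2 at PRRX1 and 3 of 9 at TWIST1.

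RUNX2, a master regulator of bone cells, had 2 control PETs and 50 senescent PETs (37.1 to 65.9) in 44 interactions over 11 anchors. The scaled ratio was 1.95 (0.513 to 16.6), and 0.622 (0.163 to 5.28) with the PETs within 2 Mb as the scale. Its contacts went to both sides, with 13 towards SUPT3H and 19 towards CLIC5. On the CLIC5 side 35.5% of 31 senescent anchors within 2 Mb were joined to RUNX2, against 11.8% of 93 on the other. The site chr6:45681698-45684168, 162 kb beyond the window, was joined to 4 RUNX2 anchors. The anchor with the most partners was chr6:45515683-45525125, with 12. The senescent contact ranked first joined chr6:45412158-45417021 to chr6:45617807-45626448 over 208 kb, and 6 contacts had 2 PETs each. The longest spanned 1346 kb. The longest control contact, from chr6:45403996-45407795 to chr6:45622950-45625261, ended at the same distal site as the first of these. The other control PET joined this window to chr6:45557189-45559100.

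**Figure D5:**
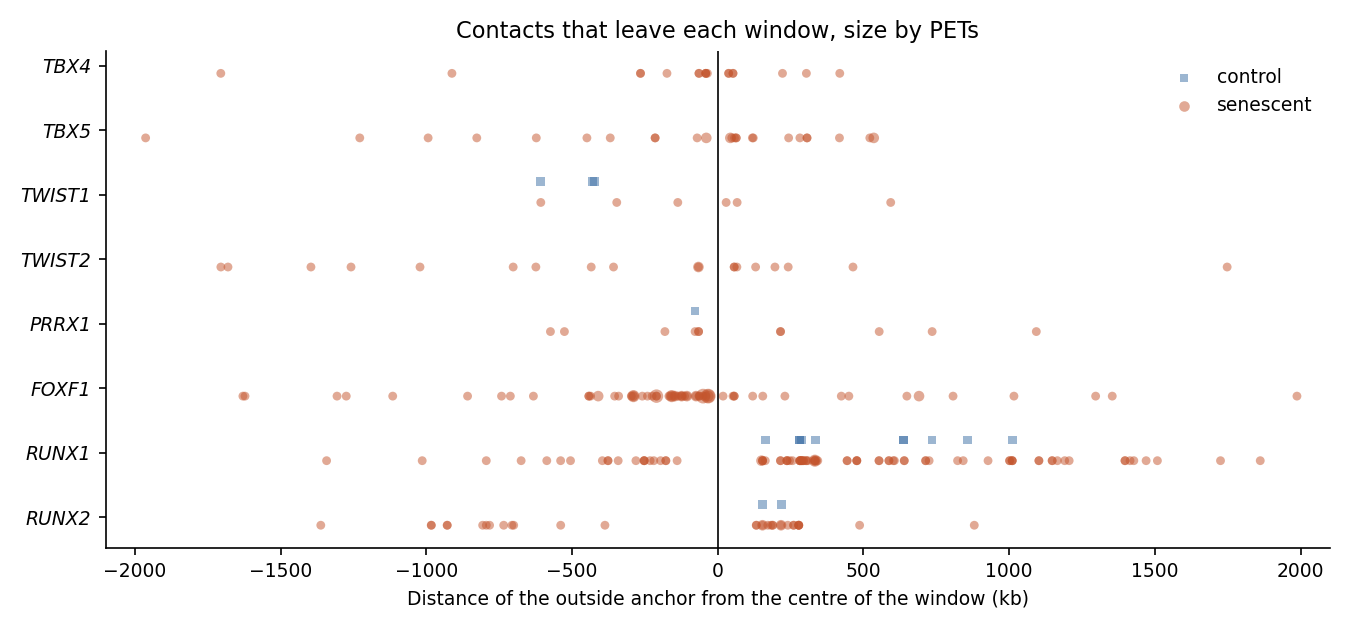
Contacts that left each window, by the distance of the outside anchor from the centre of the window, with squares for the control library, circles for the senescent library and larger symbols for more PETs. FOXF1 contacts crowd towards lower coordinates, with 48 of 64 on that side, and RUNX1 contacts towards higher ones, with 69 of 90 senescent contacts.

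Pooled over the 8 loci, the senescent contacts were longer than those of the library as a whole. The median span at the 8 loci was 119.7 kb (42.1 to 328) for control contacts, against 85.4 kb over all control interactions, a value within the interval. For senescent contacts it was 193 kb (151 to 222), against 97.1 kb. FOXF1, RUNX1 and RUNX2 had medians of 207, 201 and 187 kb, with intervals above the library's median. The interval held it at each of the other 5 loci, and the medians of TBX4 and TWIST1, 41.9 and 68.9 kb, lay below it. Spans of at least 500 kb made up 25.1% of the senescent contacts at the loci and 16.5% of all senescent contacts. The senescent anchors at the loci were also wide: 7 of 62 (11.3%, 4.66 to 21.9%) exceeded 10 kb, against 2.41% of all senescent anchors. Their part in the number of contacts was not tested, but without such anchors the 8 loci kept 274 of 465 senescent PETs and all 32 control PETs. Repeated contacts made up 15.2% (11.7 to 19.3%) of the senescent interactions at the loci, close to the 14.4% of the library, and 1 of 30 in the control library (3.33%, 0.0844 to 17.2%), an interval that holds that library's 13.3%.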

How the data were processed

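METTL3 HiChIP interactions of 1 control and 1 senescent IMR90 library were analysed, from cells fixed in 1% formaldehyde for 10 min. Per the submitters' processing notes, HiC-Pro 3.1.0 and hg19 were used. How loops were called, where the anchors came from, and how pairs were filtered or duplicates handled is not given in the sources used here. For each interaction, the deposited whole number was read as the raw PET count. The last deposited value was read as a p-value or q-value, and which it is was not stated. Both readings were made from the values. The tables hold listed pairs only, so their totals are not sequencing depths.

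Counts, ratios and shares were made in scipy 1.17.1 and pandas 2.3.3 (numpy 2.4.6, Python 3.11.15), and plots in matplotlib 3.10.9. An anchor counted at a locus with at least 1 bp of overlap. Ratios were scaled to deposited PETs unless another scale is named. PETs have exact Poisson intervals, shares exact Clopper-Pearson intervals, ratios exact conditional binomial intervals and medians order-statistic intervals, all at 95%. PETs that copy 1 molecule would make them too narrow. Ratio intervals take the scale totals as fixed. Those scaled to the PETs within 2 Mb leave out the counting error of only 11 to 46 control PETs, so they are too narrow. No p-value was computed. Tiles ran end to end along the 22 autosomes, and an interaction counted once in each tile it touched. Rates of joined anchor pairs used 20 distance classes per factor of 10. The ratio interval was tried on simulated independent Poisson counts, the model that it assumes. That trial could not show how it holds with variation between cultures or contacts that share an anchor. Coordinates are 1-based, with starts read as 0-based in the files.

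All 8 genes are described. For each locus and library the text names the contact with the most PETs, the longest contact and the anchor with the most partners, and every contact listed in both libraries. Sites joined to several anchors of a locus, and the comparison of distal sites, were added after the values were seen. Lists of other mesenchymal, epithelial, endothelial, blood and muscle factors were not placed, as no hg19 annotation was used. The genes and lists were chosen with earlier results of these data known.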

Additional observations from a re-analysis of the deposited data

How the results depend on the processing

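Ratios depended on the scale. For the 8 loci together, the ratio of senescent over control was 14.5 without scaling and 2.45 without RUNX1. It was 3.59 (1.21 to 17.6) with at least 2 PETs (3 control PETs), and 1.62 (1.15 to 2.36) with windows widened by 50 kb. It was 0.802 to 1.25 under the other alternatives. Leaving out each gene in turn was chosen after seeing the data. Without scaling, the TWIST1, PRRX1 and RUNX1 ratios turned to 3.67, 4.25 and 7.96. With the PETs within 2 Mb as the scale, TWIST1, PRRX1 and RUNX2 turned to 2.22, 1.10 and 0.622, and with at least 2 PETs RUNX1 turned to 1.20. The cause was not tested. Control PETs and interactions fell from 32 and 30 to 3 and 1 with at least 2 PETs, and to 18 each with a deposited value of at most 0.05. Senescent PETs and interactions, 465 and 362 as reported, were 158 and 55 with at least 2 PETs, 338 and 263 with a deposited value of at most 0.05, 274 and 231 without anchors over 10 kb, and 705 and 549 with windows widened by 50 kb. The median span was 8.20 kb (control) and 29.6 kb (senescent) with at least 2 PETs, and 128 kb (senescent) weighted by PETs. Contacts in both libraries rose from 6.67% to 53.3% with anchors within 5 kb, a rule under which the share of all control contacts was not computed. TWIST1, PRRX1 and RUNX2 gave no ratio with at least 2 PETs, and the 4 loci without control PETs gave none at all. Few control PETs limit every ratio: 7 of the 8 loci had at most 4. No paired analysis was possible because each group has 1 library.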
